A study of Mus musculus with 3 samples.

Results

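The natural killer (NK) barcodes of the mouse mesenteric lymph node numbered 57 among 67002 kept barcodes, with 15 in the LysoPS-OVA library, 11 in the Free OVA library and 31 in the Citrate buffer library. They were chosen by measured values. A kept barcode (300 genes or more, and at most 10% mitochondrial unique molecular identifiers, UMIs) was a member if it held a UMI of at least 2 of the 7 genes Ncr1, Klrb1c, Klre1, Gzma, Prf1, Eomes and Tyrobp, of which at least 1 was Ncr1, Klrb1c or Klre1, and no UMI of Cd3d, Cd3e, Cd3g, Cd79a or Fscn1. The levels of these 12 genes are therefore a description and not a finding. The study dosed 3 groups of 6 mice by mouth for 4 weeks and pooled each group into 1 droplet library after enzymatic digestion and removal of dead cells. The LysoPS-OVA group received 1 µg of ovalbumin (OVA) in what the series title calls a lysophosphatidylserine nanoparticle, the Free OVA group received 1 µg of ovalbumin alone, and the Citrate buffer group received 5 mM citrate buffer. That last sample is titled an untreated control while its treatment label names the buffer. The labels give the cells as intestinal although the tissue is mesenteric lymph node, and they name no strain, age or sex for these groups. With 1 pooled library per group the spread between animals is unknown, so no test of a group difference was possible, and every 95% interval covers counting error only. Intervals of levels and folds take every UMI as independent, so they leave out the spread between members as well.

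NK cells are innate lymphocytes that kill target cells by releasing perforin and granzymes and that secrete cytokines and chemokines early in a response. Their reactivity is set by a balance of activating receptors, such as NKp46 and NKG2D, and of inhibitory receptors for MHC class I, which in mice include the Ly49 proteins encoded by the Klra genes. They depend on interleukin-15, read through the beta and common gamma receptor chains, and in lymph nodes they are a small population beside T and B cells. Type 1 innate lymphoid cells (ILC1) also carry NKp46 and NK1.1 but are typically Eomes-negative and often express the interleukin-7 receptor.

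The members held 80929 UMIs in the LysoPS-OVA library, 38674 in the Free OVA library and 121273 in the Citrate buffer library, with medians of 5150, 2408 and 3671 UMIs per member. The least deep member had 691 UMIs and came from the Free OVA library. The files list 32285 genes, and the kept barcodes as a whole had medians of 4248 UMIs in the LysoPS-OVA library, 1871 in the Free OVA library and 2830 in the Citrate buffer library. Pairs of libraries shared 118 to 141 kept barcodes. No barcode was a member in more than 1 library, and 1 member each in the pair of Free OVA and Citrate buffer and the pair of LysoPS-OVA and Free OVA had a barcode also kept in the other library of the pair. Scrublet, an alternative only, marked 0 of 15, 0 of 11 and 1 of 31 members as doublets in the LysoPS-OVA, Free OVA and Citrate buffer libraries.

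Transcripts of both sexes were present in unlike proportions. Y-linked transcripts without Xist were read in 9 of 15 LysoPS-OVA, 4 of 11 Free OVA and 11 of 31 Citrate buffer members, and Xist without Y-linked transcripts in 1, 2 and 9. The part of sex in the differences between libraries was not tested.

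The rule's edges were blurred in these counts. The marker part alone was met by 62 barcodes in the LysoPS-OVA library, 52 in the Free OVA library and 145 in the Citrate buffer library, and the exclusions then removed all but 24.2%, 21.2% and 21.4% of them. Of the barcodes just outside, 165 carried a Cd3 UMI, and 46.1% of these had a Trac UMI (the T cell receptor alpha constant gene) and 21.2% a Cd8a UMI. Among members, 10.5% had a Trac UMI and 1.75% a Cd8a UMI. The other T cell receptor constant genes were less separated. Trbc1 was detected in 50.9% of members and 63% of the Cd3-positive barcodes, Trbc2 in 33.3% and 64.2%, and Trdc in 17.5% and 27.9%. Klrd1 (CD94) was detected in 57.9% of members and in 64.2% of the Cd3-positive barcodes, and Nkg7, a cytotoxic granule protein gene, in 64.9% and 72.1%. A further 49 barcodes had 1 receptor gene of the rule and no other marker. They had a median of 1614 UMIs, against 4289 in members, and Nkg7 was detected in 6.12% of them. Of the members, 21 met the rule with exactly 2 markers, namely 5 in the LysoPS-OVA library, 5 in the Free OVA library and 11 in the Citrate buffer library.

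Within the members the defining genes were unevenly spread. Ncr1, which encodes NKp46 (chr7:4337724-4345164, plus strand, GENCODE M21 on GRCm38, the mm10 build), had a UMI in 14 of 15 LysoPS-OVA members, 8 of 11 Free OVA members and 26 of 31 Citrate buffer members. Its level was 1384, 1241 and 1031 CPM in those libraries, where CPM is a gene's summed UMIs scaled to the same total in each library. In B barcodes of the same libraries, thinned to 1000 UMIs each, Ncr1 was at 0 by construction, since their definition excludes it. Tyrobp, the DAP12 adaptor, was detected in 13, 8 and 26 members, and Klre1, a lectin-like receptor, in 9, 6 and 20. Klrb1c, which encodes NK1.1, was detected in 7 LysoPS-OVA, 6 Free OVA and 17 Citrate buffer members. Eomes, the T-box factor of conventional NK cells, was found in 6, 4 and 11 members, so the larger share of members in each library had no Eomes UMI.

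Gzma (granzyme A) was carried by few members at high counts. It was detected in 3 LysoPS-OVA, 2 Free OVA and 10 Citrate buffer members, with up to 30, 27 and 53 UMIs in 1 barcode. The summed level was 445 CPM in the LysoPS-OVA library, 750 CPM in the Free OVA library and 1534 CPM in the Citrate buffer library. Gzma is also a membership gene, so this order is given as a description. Prf1 (perforin) ran the other way, at 222, 155 and 66 CPM with 7, 2 and 4 members positive. Gzmb had 2, 6 and 4 UMIs, and all 5 members with a Gzmb UMI also had a Gzma UMI. Ifng had 0, 1 and 1 UMIs and Il10 had none in any library. A count of 0 allows a level of up to 37.1 CPM in LysoPS-OVA, 77.6 CPM in Free OVA and 24.7 CPM in Citrate buffer members, taking 3 counts as the floor in each library.

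The 57 members fell into unlike profiles when split by the Ly49 genes, a split made after the values were seen. A UMI of any of the 11 Klra genes was present in 33 members, of which 8 were in the LysoPS-OVA library, 5 in the Free OVA library and 20 in the Citrate buffer library. These are 53.3% (95% Clopper-Pearson interval 26.6 to 78.7), 45.5% (16.7 to 76.6) and 64.5% (45.4 to 80.8) of the members of each library, and the intervals overlap throughout. Of the 33, 29 carried 2 or more Klra genes and the most was 7. The 24 members without a Klra UMI had a median of 3686 UMIs, against 4390 in members with one.

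Several genes were detected mostly in members with a Klra UMI. Eomes was detected in 20 of 33 of them against 1 of 24 members without Klra, Gzma in 14 against 1, Prf1 in 12 against 1, and Itga2, the integrin of the NK marker DX5, in 28 against 4. Klre1 was detected in 29 against 6. Ccl5, a chemokine stored by cytotoxic lymphocytes, was at 4814 CPM in members with a Klra UMI and 865 CPM in members without, and Nkg7 at 1573 and 403 CPM. After thinning to 1000 UMIs per barcode, Eomes was found in 36.4% of Klra-positive members and 0% of the others, and Itga2 in 39.4% and 9.09%. Tbx21, which encodes T-bet, was in 10 of 33 and 8 of 24 members, and Il18r1 in 28 and 12. Other NK receptor and adaptor genes did not follow this split. Klrb1c was in 17 of 33 members with a Klra UMI and 13 of 24 without, Cd226 was at 208 and 659 CPM, Klrb1b at 194 and 315 CPM, and the adaptor gene Clnk at 338 and 738 CPM. Eomes, Gzma, Prf1, Klre1 and Klrb1c are membership genes. A member that lacks some of the rule's markers must hold others, so the values of these genes in this split are a description only.

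Among the 24 members without a Klra UMI, 11 had an Il7r UMI and less than 1% of their UMIs on the macrophage and dendritic cell list. All 11 of these also had a Rora UMI, 8 had Cxcr6, 9 had Tmem176b and 10 each had Emb, Cd226 and Ikzf2. Ncr1 and Klrb1c, in 10 each, are membership genes, so their presence is set in part by the rule and is a description only. None of the 11 had Eomes, another membership gene. Cxcr6 was detected in no member with a Klra UMI. The 11 were spread as 5 of 15 members in the LysoPS-OVA library (33.3%, 11.8 to 61.6), 1 of 11 in the Free OVA library (9.09%, 0.23 to 41.3) and 5 of 31 in the Citrate buffer library (16.1%, 5.45 to 33.7). Of the ILC1 list, Itga1, Il7r, Cxcr6, Tmem176a, Tmem176b, Cd200r1, Inpp4b and Tnfsf10 were all detected among the members. Not all of them set the 11 apart. Inpp4b was read in 8 of the 11 and in 26 of the 33 members with a Klra UMI, Itga1 in 5 and 7, and Cd200r1 in 4 and 3. Il22, Il17a and Il17f of the ILC3 list and Il1rl1, Areg, Il5, Il13 and Il17rb of the ILC2 list were at 0 in all libraries. Of the 7 ILC3 genes, 4 had a UMI in a member. In the 11 Il7r-positive members, Il23r had 16 UMIs in 4, Ccr6 7 in 4 and Il1r1 3 in 2. Rora, read in all 11, and Gata3, with 5 UMIs in 4, are of the ILC2 list. In the 33 members with a Klra UMI, Il23r, Ccr6, Il1r1 and Gata3 were read in 0, 1, 0 and 7. These markers do not bear out the NK label for every member, and the members without a Klra UMI are called by their genes here.

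**Figure D1:**
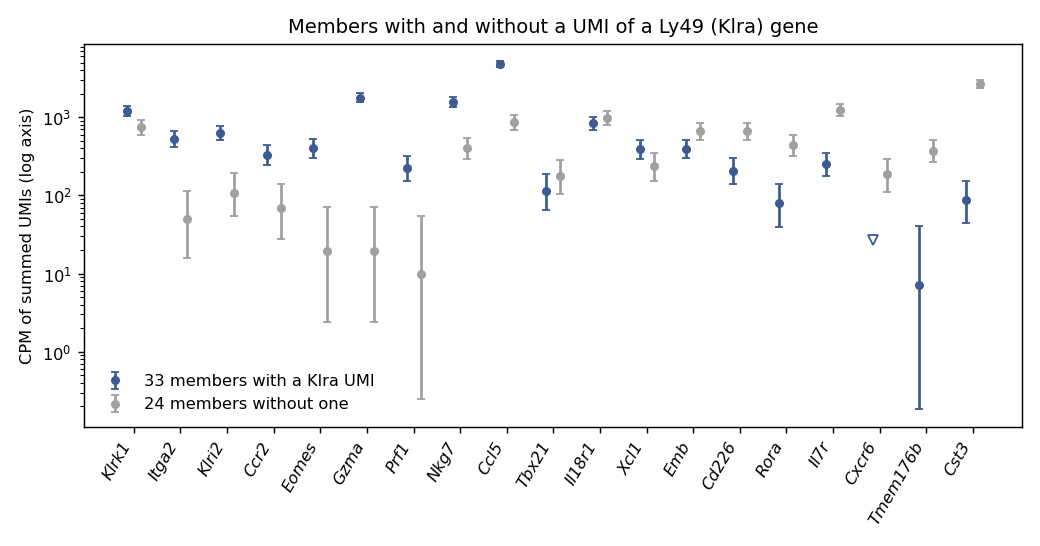
Summed CPM (log axis) of 19 genes in the 33 members with a Klra UMI (blue) and the 24 without (grey), all libraries pooled, with exact 95% Poisson intervals that cover counting error only; the open triangle is the upper limit of a gene with no UMI. Eomes, Gzma and Itga2 sit higher in members with a Klra UMI, and Il7r, Rora and Tmem176b in members without.

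Another 4 members, 1 in the LysoPS-OVA library, 1 in the Free OVA library and 2 in the Citrate buffer library, had 1% or more of their UMIs on the macrophage and conventional dendritic cell list and no Klra UMI. All 4 had UMIs of Cst3, Cd74 and H2-Aa, against 11, 19 and 16 of the 33 members with a Klra UMI, 3 had Xcr1 against 1, and none had Klrk1, Nkg7 or Eomes. The summed level of that list, 9 of whose 11 genes were detected, was 1310 CPM in LysoPS-OVA members, 2094 CPM in Free OVA members and 1938 CPM in Citrate buffer members, against 720, 1469 and 960 CPM in the other kept barcodes. C1qa and Clec9a were at 0. A single Citrate buffer barcode held 108 of the 109 Lyz2 UMIs of that library's members, and a single Free OVA barcode held all 48 Wfdc17 UMIs. The remaining 9 members had no Klra or Il7r UMI and less than 1% of their UMIs on the list, 1 in the LysoPS-OVA library, 4 in the Free OVA library and 4 in the Citrate buffer library, with a median of 2224 UMIs. Of these 9, 6 had an Ncr1 UMI, 3 had Klrk1, 3 had Nkg7 and 1 had Eomes. Antigen presentation and myeloid transcripts were read in several of them. Cd74 had 91 UMIs in 7 of the 9, Cst3 57 in 6, H2-Aa 44 in 5, Batf3 (a dendritic cell transcription factor) 12 in 5 and Aif1 (a myeloid cell marker) 9 in 5. In the 33 members with a Klra UMI, Batf3 had 2 UMIs and Aif1 had 0. The list limit of 1% thus did not take in every member with such transcripts. Siglech, a plasmacytoid dendritic cell marker, was at 0 in every member, as were all 5 mast cell and basophil genes. The summed B list was at 3274, 4266 and 3406 CPM in LysoPS-OVA, Free OVA and Citrate buffer members, against 15012, 15384 and 11528 CPM in the other kept barcodes, and all 11 of its genes were detected. The T list was at 1174, 905 and 1047 CPM, against 2388, 1518 and 2602 CPM, again with all 11 genes detected. The part of these transcripts in the differences between libraries was not tested beyond leaving the 4 barcodes out.

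The Klra genes are part of the NK gene complex on chromosome 6, where 24 Klr genes of the files lie between positions 128609227 and 131247362 (GENCODE M21, GRCm38), and 21 of the 24 had a UMI in a member. Klra1 (Ly49A, an inhibitory receptor) was found in 26 members, Klra7 (Ly49G, inhibitory) in 22, and Klra4 (Ly49D) and Klra8 (Ly49H), both activating receptors that signal through DAP12, in 18 each. Of the 18 members with Klra4, 17 also had Klra1 and 14 also had Klra8. Because Ly49 genes arose by duplication, counts can be split between copies. In the last 500 bases of the GENCODE M21 transcripts, 4.66% of the 50-base stretches of Klra4 and 13.1% of those of Klra8 occur in another Klra gene, and no stretch of Klra4 occurs in Klra8 or of Klra8 in Klra4. The shared stretches of Klra4 all occur in Klra1, and 6.96% of those of Klra1 occur in Klra4. For Klra9 the share found in another Klra gene is 46%, for Klra10 40.6% and for Klra3 31.5%, so the counts of these 3 are uncertain.

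Promoter windows, from RefSeq on GRCm38.p6, are shown for 3 of the co-detected Ly49 genes and for Ncr1, to set the copies side by side. Each is the 250 bases before the annotated start, 5′ to 3′ on the gene's strand. Capitals mark TGTGGT or its reverse complement ACCACA, the core letters bound by Runx factors, searched on both strands with no other motif.
Klra4: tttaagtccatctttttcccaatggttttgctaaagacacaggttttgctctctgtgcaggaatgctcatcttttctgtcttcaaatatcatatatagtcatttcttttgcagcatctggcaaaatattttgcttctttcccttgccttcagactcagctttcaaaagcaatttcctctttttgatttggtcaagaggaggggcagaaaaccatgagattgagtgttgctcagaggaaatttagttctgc
Klra8: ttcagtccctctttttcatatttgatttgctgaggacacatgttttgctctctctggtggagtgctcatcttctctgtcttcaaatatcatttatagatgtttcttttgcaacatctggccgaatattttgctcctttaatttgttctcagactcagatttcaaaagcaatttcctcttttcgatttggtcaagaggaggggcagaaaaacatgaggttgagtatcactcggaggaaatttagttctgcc
Klra1: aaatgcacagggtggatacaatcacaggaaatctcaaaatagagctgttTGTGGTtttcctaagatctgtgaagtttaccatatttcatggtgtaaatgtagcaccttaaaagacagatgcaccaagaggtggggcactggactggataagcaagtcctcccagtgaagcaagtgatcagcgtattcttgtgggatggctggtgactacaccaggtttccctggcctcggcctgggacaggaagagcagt
Ncr1: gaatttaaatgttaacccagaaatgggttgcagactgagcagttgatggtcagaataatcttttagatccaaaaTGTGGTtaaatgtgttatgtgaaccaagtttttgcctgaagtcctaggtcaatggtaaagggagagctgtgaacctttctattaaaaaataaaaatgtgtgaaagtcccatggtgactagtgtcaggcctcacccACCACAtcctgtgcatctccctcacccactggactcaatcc
The windows lie at chr6:130067272-130067521, chr6:130129899-130130148 and chr6:130386875-130387124, all on the minus strand, and at chr7:4337465-4337714 on the plus strand. Klra4 and Klra8 were identical at 84.5% of 251 aligned positions. The other pairs of these 4 windows were identical at 45.6% to 50.4% and pairs with the window of Il7r, an unrelated gene, at 44.8% to 49.8%. The Runx letters occurred 2 times in the Ncr1 window, 1 time in the Klra1 window and not in the windows of Klra4 and Klra8. They occur in 14% of the 32851 promoter windows of the table, so a match here is a description only.

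The share of NK barcodes was lowest in the Free OVA library. NK barcodes made up 0.0866% of kept barcodes in the LysoPS-OVA library (95% Clopper-Pearson interval 0.0485 to 0.143), 0.0471% in the Free OVA library (0.0235 to 0.0843) and 0.118% in the Citrate buffer library (0.08 to 0.167). The ratio of shares was 0.736 for LysoPS-OVA over Citrate buffer (interval by the log method 0.397 to 1.36), which does not separate the libraries at this depth. For Free OVA over Citrate buffer it was 0.401 (0.201 to 0.797), and for LysoPS-OVA over Free OVA 1.84 (0.844 to 4). CD8 T barcodes had ratios of 0.997 for LysoPS-OVA over Citrate buffer, 0.441 for Free OVA over Citrate buffer and 2.26 for LysoPS-OVA over Free OVA. B barcodes were at 1.94, 1.29 and 1.51 in the same order of pairs. Taken over barcodes with a Cd3 or Cd79a UMI plus the NK barcodes, the ratio for Free OVA over Citrate buffer was 0.554 with an interval of 0.278 to 1.1. RNA quality also moved with the library. Of the members, 11 of 15 in the LysoPS-OVA library, 4 of 11 in the Free OVA library and 17 of 31 in the Citrate buffer library had Malat1 at 0.5% and ribosomal protein genes at 10% or more of their UMIs. With these limits on all barcodes the ratio for Free OVA over Citrate buffer was 0.353 with an interval of 0.119 to 1.05, which includes 1. Fewer NK cells and less recovery of NK cells into a library cannot be told apart here.

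**Figure D2:**
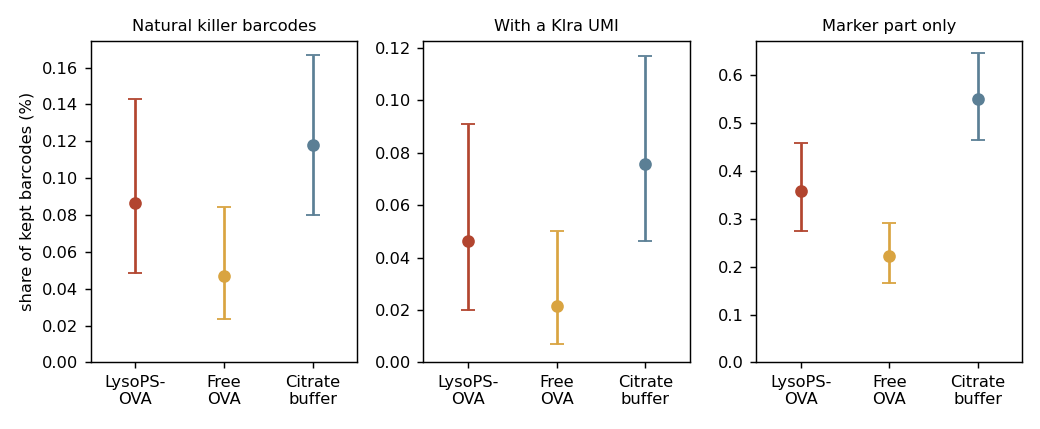
Share of kept barcodes (%) in each library with 95% Clopper-Pearson intervals, for the 57 NK barcodes (left), for the 33 of them with a Klra UMI (centre) and for all barcodes that meet the marker part with Cd3, Cd79a and Fscn1 UMIs allowed (right). The Free OVA library is lowest in all 3 panels, at 0.0471%, 0.0214% and 0.223%.

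Members with a Klra UMI alone made up 0.0462% of kept barcodes in the LysoPS-OVA library, 0.0214% in the Free OVA library and 0.0759% in the Citrate buffer library. Their ratio was 0.608 for LysoPS-OVA over Citrate buffer (0.268 to 1.38) and 0.282 for Free OVA over Citrate buffer (0.106 to 0.752). With Cd3, Cd79a and Fscn1 UMIs allowed, the barcodes that met the marker part gave 0.65 (0.483 to 0.875) and 0.405 (0.295 to 0.556). That set includes the Cd3-positive barcodes with T cell receptor transcripts described above.

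Gene levels were compared as log2((CPM + 10) ratio) of UMIs summed over the members of a library, over 1969 genes with a mean of 100 CPM or more, leaving out the 12 membership genes. A gene was counted when it was past 2-fold. For LysoPS-OVA over Citrate buffer, 140 genes (7.11%) were 2-fold or more higher and 71 (3.61%) lower. For Free OVA over Citrate buffer the shares were 12.3% higher and 8.43% lower, and for LysoPS-OVA over Free OVA 10.2% and 9.6%. The medians over all genes were 0.08, 0.12 and -0.00. Of the genes counted for LysoPS-OVA over Citrate buffer, 99 higher and 44 lower ones also had an interval of the fold that excludes 1. Such an interval can still rest on a single barcode, since it leaves out the spread between members. Both pairs with the Free OVA library, which had the fewest UMIs, had more genes past 2-fold. Under median-of-ratios scaling the split was 110 higher and 90 lower for LysoPS-OVA over Citrate buffer, 160 and 248 for Free OVA over Citrate buffer, and 244 and 153 for LysoPS-OVA over Free OVA, in place of 140 and 71, 243 and 166, and 201 and 189. That scaling moved the libraries by 0.01, -0.11 and 0.1 on the log2 scale, so directions for Free OVA are relative to the total-UMI scaling. The lists were chosen with earlier results of these data known. The background for each list count of LysoPS-OVA over Citrate buffer is 7.11% higher and 3.61% lower with a median of 0.08, and a count of 0 or 1 in a list of this size is near it.

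Of the activating receptors, 7 of 11 considered genes were higher in LysoPS-OVA than in Citrate buffer members, with 1 past 2-fold higher and none lower, against 7.11% and 3.61% of all genes, and a median of 0.38 beside 0.08 over all genes. Klrk1, which encodes NKG2D, was at 1285 CPM in LysoPS-OVA members, 1060 CPM in Free OVA members and 825 CPM in Citrate buffer members. It was 1.56-fold (1.17 to 2.07) for LysoPS-OVA over Citrate buffer, beside 1.72-fold in CD8 T barcodes, and 1.24-fold (0.866 to 1.76) within members with a Klra UMI. After thinning it was found in 53.3%, 66.7% and 48.4% of members, against 0.1%, 0.138% and 0.134% of B barcodes. Cd226, the DNAM-1 receptor for nectin-family ligands, was at 667 CPM in LysoPS-OVA, 543 CPM in Free OVA and 173 CPM in Citrate buffer members. The Citrate buffer library was the low one, with folds of 3.85 (2.29 to 6.72) for LysoPS-OVA and 3.14 (1.63 to 6.03) for Free OVA over it, while in CD8 T barcodes Cd226 was 0.839-fold for LysoPS-OVA over Citrate buffer. The Cd226 fold was 4.59 (2.77 to 7.62) times that in CD8 T barcodes. Within members with a Klra UMI, however, Cd226 was at 156, 544 and 138 CPM, and the LysoPS-OVA over Citrate buffer fold was 1.13 (0.365 to 3.29). Of the other activating receptors, Cd160 was 1.71-fold (0.783 to 3.79), Cd48 1.6-fold (0.74 to 3.47) and Klrc2 0.599-fold (0.191 to 1.63), none clear of counting error.

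Inhibitory receptors had a median of 0.24 over 9 genes, with 1 past 2-fold higher. Klra1 was at 828 CPM in LysoPS-OVA, 879 CPM in Free OVA and 552 CPM in Citrate buffer members, a fold of 1.5 (1.05 to 2.13) for LysoPS-OVA over Citrate buffer. Klrd1, the CD94 chain that pairs with NKG2 proteins, was at 704, 672 and 487 CPM in the same libraries, a fold of 1.45 (0.988 to 2.12). Klrb1b, an inhibitory receptor of the Nkrp1 family, was 1.63-fold (0.887 to 3) and Klri2 0.841-fold (0.528 to 1.32). Cd96, which shares ligands with Cd226, had 10, 8 and 6 UMIs and a fold of 2.5 (0.822 to 8.36), and its log2 difference was -0.04 within members with a Klra UMI. Klrg1, a marker of late NK maturation, was at 0 UMIs in every library.

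Signalling adaptors had 1 of 11 genes past 2-fold and a median of -0.04. Fcer1g, the Fc receptor gamma chain, was at 1063 CPM in LysoPS-OVA, 905 CPM in Free OVA and 709 CPM in Citrate buffer members, 1.5-fold (1.1 to 2.04) for LysoPS-OVA over Citrate buffer. Within members with a Klra UMI it was 1.41-fold (0.963 to 2.06), an interval that includes 1. The kinase gene Txk was 1.45-fold (1.02 to 2.07) and Fyn 0.778-fold (0.518 to 1.16). Vav1, a guanine nucleotide exchange factor, had 11, 7 and 6 UMIs and a fold of 2.75 (0.931 to 9.05), with a log2 difference of -0.36 when barcodes were thinned before the rule.

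Of the cytotoxic effectors outside the rule, 0 of 7 considered genes were past 2-fold for LysoPS-OVA over Citrate buffer, a count that says little beside 7.11% higher and 3.61% lower of all genes, and the median was 0.09. Nkg7 was at 1310 CPM in LysoPS-OVA, 1267 CPM in Free OVA and 866 CPM in Citrate buffer members, a fold of 1.51 (1.14 to 2) for LysoPS-OVA over Citrate buffer, beside 1.08 in CD8 T barcodes. Ctsw (cathepsin W) was 1.38-fold (0.838 to 2.26), Srgn (serglycin, the granule proteoglycan) 0.917-fold (0.606 to 1.37), Ctsd 1.26-fold (0.67 to 2.34) and Serpinb6b 0.659-fold (0.293 to 1.39). All of these last 4 intervals include 1.

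Secreted factors differed most in Xcl1 among the 4 considered genes, of which 2 were past 2-fold higher and none lower, with a median of 0.88. Xcl1, the lymphotactin that attracts XCR1-positive dendritic cells, had 52 UMIs in 7 LysoPS-OVA members, 13 UMIs in 3 Free OVA members and 13 UMIs in 6 Citrate buffer members. The LysoPS-OVA UMIs were concentrated, with 15, 15 and 10 of the 52 in single barcodes, the first and second of these with Klra UMIs. A single Free OVA barcode held 9 of that library's 13, so the folds below rest on few members. Its level was 643 CPM in LysoPS-OVA, 336 CPM in Free OVA and 107 CPM in Citrate buffer members. The LysoPS-OVA library was highest, 5.99-fold (3.22 to 12) over Citrate buffer and 1.91-fold (1.03 to 3.83) over Free OVA, and Free OVA was 3.14-fold (1.34 to 7.34) over Citrate buffer. In CD8 T barcodes Xcl1 was 1.94-fold (1.57 to 2.42) for LysoPS-OVA over Citrate buffer, so the NK fold was 3.09 (1.62 to 5.87) times that. Within members with a Klra UMI it was at 826, 408 and 111 CPM and 7.46-fold (3.42 to 18.6), carried by 4 of 8, 1 of 5 and 3 of 20 members. After thinning, Xcl1 was found in 40% of LysoPS-OVA, 22.2% of Free OVA and 6.45% of Citrate buffer members, against 0%, 0.0344% and 0.168% of B barcodes (median depths 4478, 5369 and 3709 UMIs).

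Ccl5 was the most abundant chemokine and ran the other way. It was at 2904 CPM in LysoPS-OVA, 1888 CPM in Free OVA and 3711 CPM in Citrate buffer members, 0.783-fold (0.665 to 0.918) for LysoPS-OVA and 0.509-fold (0.392 to 0.653) for Free OVA over Citrate buffer. In CD8 T barcodes it was 1.35-fold for LysoPS-OVA over Citrate buffer. Within members with a Klra UMI the LysoPS-OVA fold was 0.889 (0.751 to 1.05). Ltb (lymphotoxin beta) was 1.28-fold (0.949 to 1.72), and Tgfb1 had 12, 6 and 6 UMIs and was 3-fold (1.04 to 9.73) for LysoPS-OVA over Citrate buffer, with a log2 difference of -0.07 when barcodes were thinned before the rule.

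**Figure D3:**
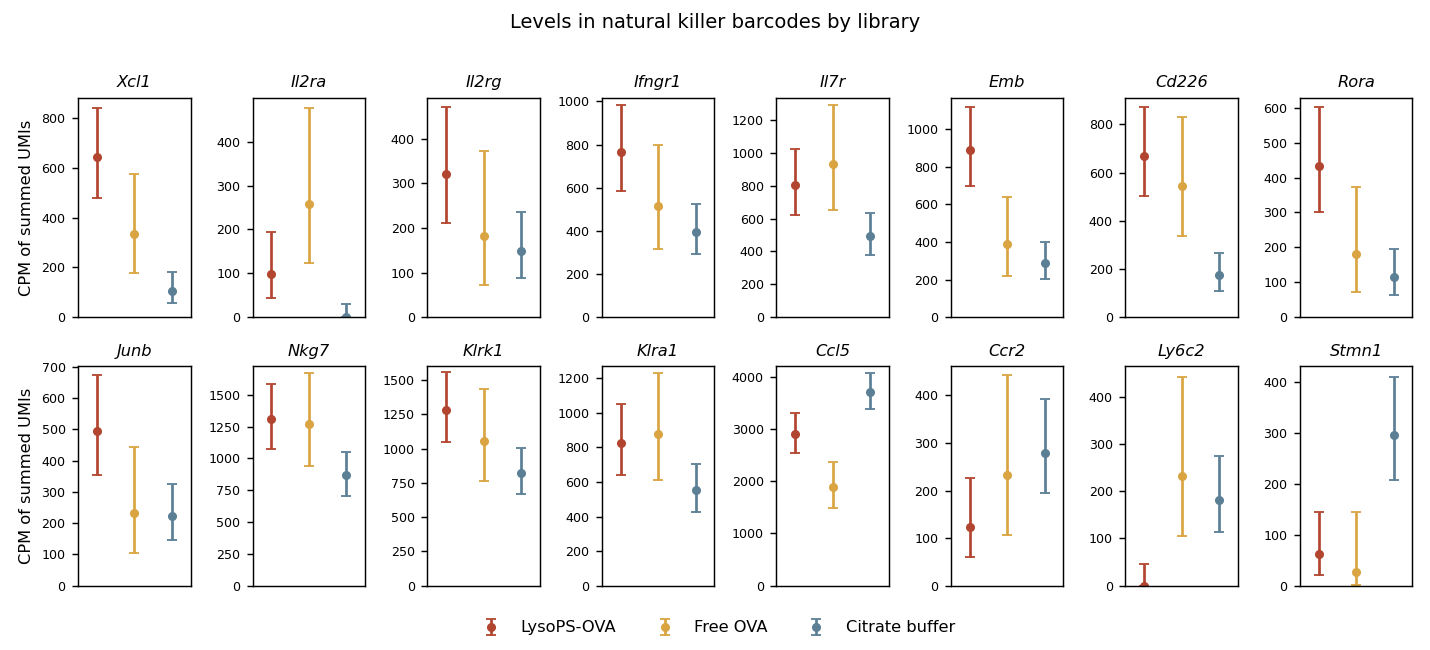
CPM of summed UMIs of 16 genes in NK barcodes of the LysoPS-OVA (red), Free OVA (yellow) and Citrate buffer (blue) libraries, with exact 95% Poisson intervals for counting error only; each panel starts at 0 and has its own scale. Xcl1, Emb and Rora are highest in the LysoPS-OVA library, and Stmn1 is highest in the Citrate buffer library.

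Cytokine receptors were higher in LysoPS-OVA than in Citrate buffer members for 10 of 11 considered genes, against 1065 of all 1969 genes, with 2 past 2-fold and a median of 0.75, beside -0.07 in CD8 T and -0.10 in B barcodes for the same genes. Free OVA over Citrate buffer gave a like median of 0.78 with 4 past 2-fold higher, beside 12.3% of all genes for that pair. Il2rg, the common gamma chain, was at 321 CPM in LysoPS-OVA, 181 CPM in Free OVA and 148 CPM in Citrate buffer members. It was 2.16-fold (1.14 to 4.19) for LysoPS-OVA over Citrate buffer, and 1.61-fold (0.635 to 4.1) within members with a Klra UMI. Ifngr1 was at 766, 517 and 396 CPM in the same libraries, 1.94-fold (1.31 to 2.88), and 1.91-fold (1.11 to 3.32) within members with a Klra UMI. Il12rb2 was 2.1-fold (0.867 to 5.28). Il18r1, the interleukin-18 receptor, was at 964, 957 and 841 CPM, 1.15-fold (0.842 to 1.55).

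Il2ra, the high-affinity interleukin-2 receptor chain, was read in 4 of 15 LysoPS-OVA members (8 UMIs) and 2 of 11 Free OVA members (10 UMIs) and in 0 of 31 Citrate buffer members. Of the 8 LysoPS-OVA UMIs, 7 were in 3 Il7r-positive members without Klra and 1 was in a member with a Klra UMI. Of the 10 Free OVA UMIs, 7 were in 1 member with a Klra UMI and 3 in 1 Il7r-positive member without Klra. Against a floor of 3 counts in the Citrate buffer library Il2ra was at least 4-fold higher in LysoPS-OVA and at least 10.5-fold higher in Free OVA members. At 1000 UMIs per barcode it was found in 0%, 22.2% and 0% of members, beside 0.335%, 0.379% and 0.941% of B barcodes. Il7r was at 803 CPM in LysoPS-OVA, 931 CPM in Free OVA and 495 CPM in Citrate buffer members, 1.62-fold (1.13 to 2.35) for LysoPS-OVA over Citrate buffer, and 0.646-fold (0.148 to 2.24) within members with a Klra UMI.

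Emb and Rora differed among all members more than among those with a Klra UMI, though the difference between the sets was not tested. Emb, which encodes the adhesion protein embigin, was at 890 CPM in LysoPS-OVA, 388 CPM in Free OVA and 289 CPM in Citrate buffer members, 3.08-fold (2.03 to 4.76) for LysoPS-OVA over Citrate buffer and 1.42-fold (0.763 to 2.62) within members with a Klra UMI. Rora, a nuclear receptor of innate lymphoid cells, was at 432, 181 and 115 CPM, 3.75-fold (1.97 to 7.54), and within members with a Klra UMI it was 0.646-fold (0.0615 to 3.94) on 2 and 5 UMIs in the LysoPS-OVA and Citrate buffer libraries. The Il7r-positive members without Klra made up 33.3% of LysoPS-OVA and 16.1% of Citrate buffer members, as given above, and the part of that make-up in these folds was not tested. Of the ILC1 list, 0 of 5 considered genes were past 2-fold, with a median of 0.61. Tmem176b was at 259, 25.9 and 140 CPM in LysoPS-OVA, Free OVA and Citrate buffer members, 1.85-fold (0.93 to 3.74) for LysoPS-OVA over Citrate buffer, and Inpp4b was 1.53-fold (1.13 to 2.08). For Inpp4b, 75 of the 89 LysoPS-OVA UMIs were in 3 Il7r-positive members without Klra, 61 of them in 1 barcode, and within members with a Klra UMI it was the other way, at 0.269-fold (0.128 to 0.513) on 11 and 66 UMIs.

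Transcription factors had 0 of 14 considered genes past 2-fold in either direction for LysoPS-OVA over Citrate buffer, and a median of 0.13. Eomes, a membership gene, was at 297 CPM in LysoPS-OVA, 207 CPM in Free OVA and 214 CPM in Citrate buffer members. Tbx21 was at 136, 207 and 124 CPM. Ikzf2 (Helios) was 1.67-fold (1.09 to 2.59), Ets1 1.43-fold (0.981 to 2.07), Tox 1.33-fold (0.956 to 1.85) and Stat4 1.19-fold (0.87 to 1.62) for LysoPS-OVA over Citrate buffer. Irf8 was 0.517-fold (0.225 to 1.09), an interval that includes 1.

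Genes of the mature state showed no common direction, with 2 of 5 considered genes higher and 3 lower in LysoPS-OVA than in Citrate buffer members and a median of -0.16, beside -0.60 in CD8 T and -0.50 in B barcodes. Ly6c2, an antigen of mature NK cells, had 0 UMIs in LysoPS-OVA members, 9 in 2 Free OVA members and 22 in 4 Citrate buffer members, at least 4.89-fold lower in LysoPS-OVA than in Citrate buffer members against a floor of 3 counts. Thinning before the rule, which changes who is a member, gave a log2 difference of 0.87. Itgam (CD11b) had 0, 0 and 12 UMIs and Cd27 had 11, 2 and 4, and neither passed the level filter. The mature list had 1 of 5 considered genes past 2-fold lower and the homing list 1 of 12, beside 3.61% of all genes, and the homing list had 6 genes higher and 6 lower. Ccr2, a receptor for inflammatory chemokines, was at 124 CPM in LysoPS-OVA, 233 CPM in Free OVA and 280 CPM in Citrate buffer members, 0.441-fold (0.194 to 0.912). It was read in 22 of 33 members with a Klra UMI and 3 of 24 without. Within members with a Klra UMI it was 0.557-fold (0.242 to 1.17), an interval that includes 1. Other homing and adhesion genes lay near 1, with Itga4 at 1.18-fold (0.812 to 1.7), Itgb1 at 0.749-fold (0.494 to 1.12), Itgb2 at 0.656-fold (0.228 to 1.68), Cd69 at 1.5-fold (0.449 to 5.01) and Selplg at 1.43-fold (0.895 to 2.27). Zeb2 was 1.08-fold (0.746 to 1.55) and Lgals1 0.892-fold (0.521 to 1.5).

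Early response genes had a list median of 1.02 for LysoPS-OVA over Citrate buffer over 5 considered genes, with 3 past 2-fold higher beside 7.11% of all genes. The median was 0.33 in CD8 T and 0.65 in B barcodes, and in NK members it was 0 with no filter on low levels. Junb, an AP-1 subunit, was at 494 CPM in LysoPS-OVA, 233 CPM in Free OVA and 223 CPM in Citrate buffer members, 2.22-fold (1.33 to 3.76). Ier5 was 3.66-fold (1.62 to 9.04) and Klf6 2.16-fold (0.856 to 5.74), while Btg2 was 0.843-fold and Jund 1.02-fold. Within members with a Klra UMI Junb was 1.8-fold (0.888 to 3.69), an interval that includes 1, and Ier5 6.99-fold (1.92 to 38.3). The heat shock list had a median of 0.28 in NK, 0.28 in CD8 T and 0.37 in B barcodes. Dnaja1, an Hsp40 co-chaperone, was 2.31-fold (1.37 to 3.93) in NK members, 1.97-fold in CD8 T and 2.6-fold in B barcodes, and Hspa8 1.79-fold (1.26 to 2.55).

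The TGF-beta response list had 6 of 8 genes higher in LysoPS-OVA than in Citrate buffer members, against 1065 of all 1969 genes, with 1 past 2-fold beside 7.11% of all genes. The median was 0.78, beside -0.15 in CD8 T and 0.03 in B barcodes. Free OVA over Citrate buffer gave 7 of 8 higher, 3 past 2-fold beside 12.3% of all genes, and a median of 0.92, and LysoPS-OVA over Free OVA a median of -0.06. The Citrate buffer library was thus the low one for this list. Smad7, the feedback inhibitor of the pathway, was 2.32-fold (1.02 to 5.47), Smad2 2-fold (0.773 to 5.37), Skil and Tgfbr1 1.87-fold each (0.666 to 5.46) and Tgfbr2 1.72-fold (0.905 to 3.31), on 10 to 23 UMIs in LysoPS-OVA and 8 to 20 UMIs in Citrate buffer members. Only the interval for Smad7 excludes 1 among these 5 genes. Ldlrad4 was 0.87-fold. The targets of interleukin-15 and STAT5 had a median of 0.69 over 4 genes, with Pim2 2.25-fold (0.845 to 6.34), Pim1 1.89-fold (0.994 to 3.65), Bcl2 1.42-fold (1.04 to 1.92) and Mcl1 0.812-fold (0.38 to 1.66). Within members with a Klra UMI Bcl2 was 1.09-fold (0.734 to 1.61).

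MHC class I genes had 2 of 8 past 2-fold higher, beside 7.11% of all genes, and a median of 0.36, beside 0.08 over all genes. H2-Q7, a non-classical class I gene whose near-identical neighbours make its counts uncertain, was at 605 CPM in LysoPS-OVA, 129 CPM in Free OVA and 223 CPM in Citrate buffer members, 2.72-fold (1.67 to 4.53), beside 2.35-fold in CD8 T barcodes. H2-K1 was 1.59-fold (1.26 to 2.02), H2-D1 1.3-fold (1.02 to 1.65) and B2m 1.28-fold (1 to 1.64). Tapbp was 2.18-fold (0.95 to 5.19), with a log2 difference of -2.65 when barcodes were thinned before the rule, and Psmb9 0.545-fold (0.256 to 1.08). Of the interferon response genes, Ifi203 was 2.16-fold (1.14 to 4.19) and Ifi27l2a 0.461-fold (0.18 to 1.05). Within members with a Klra UMI Ifi203 was 1.31-fold (0.58 to 2.91).

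Of the cell cycle list, 4 of 5 considered genes were lower in LysoPS-OVA than in Citrate buffer members, against 903 of all 1969 genes, and 2 were past 2-fold lower, beside 3.61% of all genes. The median was -0.74, beside -0.68 in CD8 T and -0.93 in B barcodes. Stmn1 was at 61.8 CPM in LysoPS-OVA, 25.9 CPM in Free OVA and 297 CPM in Citrate buffer members, 0.208-fold (0.0638 to 0.532), beside 0.379-fold in CD8 T barcodes. Of its 36 Citrate buffer UMIs, 27 were in 2 members without Klra, 19 of them in 1 barcode, and within members with a Klra UMI it was 0.359-fold (0.0377 to 1.73). Top2a, the topoisomerase of dividing cells, was read in 1, 1 and 7 members and was 0.333-fold (0.134 to 0.729). Hmgb2 was 0.628-fold (0.431 to 0.901), and 0.807-fold (0.439 to 1.43) within members with a Klra UMI. Its Citrate buffer UMIs were 67 in 6 members without Klra and 38 in 12 members with a Klra UMI. Tubb5 was 0.588-fold (0.332 to 1), whereas Pcna was 1.78-fold (0.867 to 3.7). Pcna had 19 UMIs in LysoPS-OVA, 0 in Free OVA and 16 in Citrate buffer members. Of the 19, 15 were in 2 Il7r-positive members without Klra, and within members with a Klra UMI Pcna was 0.646-fold (0.148 to 2.24). The glycolysis list had a median of -0.29 over 4 genes, with Gpi1 at 1.75-fold, Ldha at 0.674-fold, Gapdh at 0.768-fold and Aldoa at 0.856-fold.

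**Figure D4:**
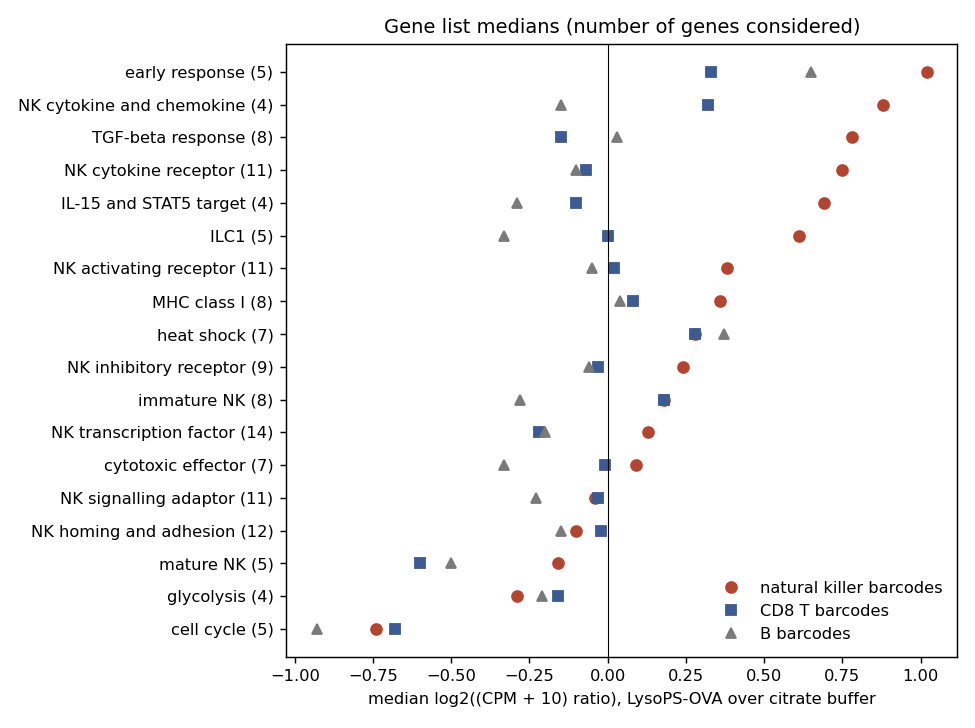
Median log2((CPM + 10) ratio) of LysoPS-OVA over Citrate buffer for the gene lists with 4 or more considered genes (number in brackets), in NK barcodes (red circles), CD8 T barcodes (blue squares) and B barcodes (grey triangles). The cytokine receptor list is at 0.75 in NK, -0.07 in CD8 T and -0.10 in B barcodes, and the cell cycle list is below 0 in all 3.

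Receptors for lysophosphatidylserine were read at low counts in NK barcodes. P2ry10, a receptor of this lipid, had 4 UMIs in LysoPS-OVA, 5 in Free OVA and 17 in Citrate buffer members, a LysoPS-OVA over Citrate buffer fold of 0.353 (0.0863 to 1.08), beside 1.33 in CD8 T and 1.49 in B barcodes. Gpr174, another such receptor, had 11, 11 and 20 UMIs, a fold of 0.824 (0.357 to 1.8). No difference was detectable in either gene at this depth. Of the list of receptors for lysophosphatidylserine and phosphatidylserine, 8 of 13 genes had a UMI, and Cd300lf, Havcr1, Axl, Mertk and Timd4 were at 0 in every library. Gpr34 had 4 UMIs in LysoPS-OVA, 0 in Free OVA and 1 in Citrate buffer members, all in Il7r-positive members without Klra. P2ry10b had 0, 0 and 4 UMIs in these libraries.

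Genes at the extremes of the whole table often rested on few members. The highest for LysoPS-OVA over Citrate buffer were Vmn2r96, Il2ra, Aven, Mast4, Xcl1, Fam184b, Sec63 and Mmp16. Vmn2r96, a vomeronasal receptor gene, had 35, 2 and 1 UMIs in LysoPS-OVA, Free OVA and Citrate buffer members, a ratio of 52.4 (8.82 to 2130), and was also 5.92-fold higher in CD8 T and 5.26-fold higher in B barcodes of the LysoPS-OVA library. Aven, a regulator of apoptosis, was read in 10, 1 and 2 members, a ratio of 15.7 (3.85 to 138), beside 1.07 in CD8 T barcodes. Mast4 was 11.5-fold (3.47 to 59.8), with 16 of its 23 LysoPS-OVA UMIs in 1 barcode, and a log2 difference of -0.06 when barcodes were thinned before the rule. Sec63 was 5.69-fold (2.06 to 19.5), Mmp16 5-fold (2.31 to 12) and Fam184b 7.49-fold (1.6 to 70.3). All 10 LysoPS-OVA UMIs of Fam184b were in 4 Il7r-positive members without Klra. Within members with a Klra UMI Mmp16 was 4.3-fold (1.6 to 13.4).

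The lowest for LysoPS-OVA over Citrate buffer were Lyz2, Ly6c2, Ifitm3, Plac8, Dpf3, Tet3, Cmah and Stmn1. Lyz2 rested on the 1 barcode named above. Ifitm3 had 0, 8 and 21 UMIs in LysoPS-OVA, Free OVA and Citrate buffer members, at least 4.67-fold lower in LysoPS-OVA than in Citrate buffer members against the floor. Of the 21 Citrate buffer UMIs, 17 were in 1 barcode with 1% or more on the macrophage and dendritic cell list. Members with a Klra UMI held 1 Ifitm3 UMI in all. Cmah, a sialic acid hydroxylase gene, was read in 6, 3 and 17 members and was 0.214-fold (0.0818 to 0.475), beside 0.887-fold in CD8 T barcodes, and 0.215-fold (0.075 to 0.506) within members with a Klra UMI. Plac8 was 0.0454-fold (0.00112 to 0.271) and Tet3 0.115-fold (0.00271 to 0.767). Dpf3 had 0 LysoPS-OVA UMIs and was at least 2-fold lower. Aoah, an acyloxyacyl hydrolase gene and 1 of the 20 genes that most set the members apart from other barcodes, was read in 5, 2 and 22 members and was 0.45-fold (0.234 to 0.814), and 0.384-fold (0.172 to 0.778) within members with a Klra UMI. Its log2 difference was 0.43 when barcodes were thinned before the rule.

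In the pairs with Free OVA, the extremes often rested on a single barcode. Wfdc17, Il2ra and Agbl4 were among the highest for Free OVA over Citrate buffer, and all 28 Free OVA UMIs of Agbl4 were in 1 barcode. Lyz2, Srsf11, Zfp512 and Ifi30, the lowest, had 0 Free OVA UMIs against 109, 27, 26 and 25 in Citrate buffer members. Mmp16, Auts2, Srsf11 and Pcna were the highest for LysoPS-OVA over Free OVA, and all 26 LysoPS-OVA UMIs of Auts2 came from 1 barcode. Wfdc17, Ly6c2, Dpf3 and Ifitm3 were the lowest for that pair. Ifitm3 was at least 5.58-fold lower in LysoPS-OVA than in Free OVA members, with 7 of its 8 Free OVA UMIs in 1 barcode.

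The 20 genes with the highest level in NK over other kept barcodes, taken in the lowest of the 3 libraries, were, beside membership genes, Klrk1, Klra4, Clnk, Klra1, Klra8, Klri2, Fcer1g, Il18rap, Klrb1f, Itga2, Klrb1b, Ctla2a, Aoah and Lrmda. They describe what the rule gathered and, since they come from the same barcodes that were chosen, are no test of identity. Klra4 was at 457 CPM in LysoPS-OVA, 879 CPM in Free OVA and 503 CPM in Citrate buffer members, 0.909-fold (0.587 to 1.39) for LysoPS-OVA over Citrate buffer. Clnk, a SLP-76 family adaptor, was 1.27-fold (0.829 to 1.93), Il18rap 1.12-fold (0.699 to 1.77) and Klra8 1.31-fold (0.761 to 2.25), so most receptor genes of this set lay within counting error of 1.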

How the data were processed

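Pooled mesenteric lymph node cells of each group were made into 1 Chromium Next GEM 3' library per the labels' protocols. The authors deposited raw UMI count matrices of whole numbers. The submitters' processing notes name Cell Ranger 7.2.0 and the mm10 build, and other upstream settings are not given in the sources used here. Barcodes with 300 genes or more and at most 10% mitochondrial UMIs were kept, and the membership rule was applied to raw counts. The members and the gene lists were chosen with earlier results of these data known.

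UMIs were summed over the members of a library, scaled to CPM and compared as log2((CPM + 10) ratio) over the 1969 genes with a mean of 100 CPM or more, without the 12 membership genes. Folds are ratios of CPM without the added 10. Counts of genes use a 2-fold threshold. Intervals (95%) were Clopper-Pearson for shares, exact Poisson for levels and conditional binomial for folds. Libraries of 1 pool allow no test between groups. B barcodes (Cd79a and Ms4a1 UMIs) and CD8 T barcodes (2 or more Cd3 UMIs and a Cd8b1 UMI), both without Ncr1, Klrb1c and Klre1, served for comparison, and detection was also given after thinning each barcode to 1000 UMIs, which left out 2 Free OVA members. Doublets were kept. Scrublet (scanpy 1.11.5), run as an alternative, called 8.05% of LysoPS-OVA, 7.41% of Free OVA and 16.5% of Citrate buffer kept barcodes. Genes were named by a rule: the membership genes, and from each NK list the 4 considered genes farthest from 0 for LysoPS-OVA over Citrate buffer and the 3 at the highest level. To these were added the 8 highest and 8 lowest genes of all for that pair, the 4 highest and 4 lowest for each other pair, the 20 genes highest in members over other barcodes, and Eomes, Tbx21, Ifng, Il10, Tgfb1, P2ry10 and Gpr174. Genes named in the Klra split, as other-cell markers or at 0 were chosen after their values were seen. Some genes that this rule names are not reported here. Alternatives changed the membership rule, filters, thinning, scaling, pseudocount and weighting. Interval and fold code was tested on simulated counts. Software was Python 3.11.15 with numpy 2.4.6, scipy 1.17.1 and pandas 2.3.3.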

Additional observations from a re-analysis of the deposited data

How the results depend on the processing

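The NK share ratio kept its side of 1 in all 30 alternatives, at 0.608 to 0.866 for LysoPS-OVA over Citrate buffer, 0.282 to 0.554 for Free OVA over Citrate buffer and 1.28 to 2.26 for LysoPS-OVA over Free OVA. For Free OVA over Citrate buffer the interval reached 1.05 with only barcodes of Malat1 at 0.5% and ribosomal genes at 10% or more, and 1.1 over lymphocytes. The number of genes past 2-fold, 211 for LysoPS-OVA over Citrate buffer, 409 for Free OVA over Citrate buffer and 390 for LysoPS-OVA over Free OVA, moved with many choices. In that order of pairs it was 598, 795 and 894 after thinning before the rule, 360, 638 and 671 in members with a Klra UMI, 19, 17 and 17 over all barcodes that met the marker part, and 95, 271 and 228 with a pseudocount of 50 CPM. It was 1113, 1790 and 1789 with a mean of 30 CPM or more and 3499, 4287 and 5436 with no filter. The Malat1 and ribosomal limits gave 652 for Free OVA over Citrate buffer and 613 for LysoPS-OVA over Free OVA, and an interval off 1 gave 212 and 146.

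These log2 values for LysoPS-OVA over Citrate buffer took the other sign. Thinning gave Cd96 -0.06, Vav1 -0.36, Tgfb1 -0.07, Ly6c2 0.87, Tapbp -2.65, Mast4 -0.06, Auts2 -3.82 and Aoah 0.43. Members with a Klra UMI gave Cd96 -0.04 and Rora -0.53. All barcodes that met the marker part gave Cd96 -0.13, P2ry10 0.23 and Sec63 -0.04. Lyz2 was 0.18 without Tyrobp as a marker and 0.3 without the macrophage and dendritic cell barcodes, and Auts2 -3.32 under the Malat1 and ribosomal limits. The early response median was 0 with no filter. For Free OVA over Citrate buffer, thinning gave Wfdc17 -1.86, Il2ra -1.86 and Ifi30 0.73, the Malat1 and ribosomal limits gave Agbl4 -3.32, and the marker part gave Ifi30 0.31 and Cd226 -0.04. For LysoPS-OVA over Free OVA, thinning gave Srsf11 -0.8, Ly6c2 4.39, Emb -0.05 and Il2ra 2.58, and the cell cycle median was -1.1 after thinning, -0.26 over the marker part and -0.29 as a mean of per-barcode CPM. The cause of these changes was not tested. The remaining values were counted once for each pair and alternative, so the same list or gene enters many times. On that count, 182 values of list medians moved and 624 did not, and 166 gene values moved and 1693 did not. The alternatives with Klra members, without macrophage and dendritic cell barcodes, over the marker part and with the interval were chosen after seeing the data. No paired analysis was possible because each group has 1 library.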
